A study of Homo sapiens with 22 samples.

Results

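The nuclear-encoded subunits of the respiratory chain and ATP synthase were described in 22 RNA-seq libraries of HUDEP-2 cells, an immortalized human erythroid progenitor line. Members were all gene names in the count tables that begin with NDUFA, NDUFB, NDUFC, NDUFS or NDUFV, SDHA to SDHD, UQCR, CYC1, COX4 to COX8, ATP5F, ATP5M or ATP5P and that have the form of a subunit name, with pseudogene names left out. The rule took 86 of 59087 gene names: 37 of complex I, 4 of complex II, 10 of complex III, 17 of complex IV and 18 of complex V. It used no measured value.

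The libraries came from 2 experiments. In the H2A.X experiment, 2 wild type (WT) and 3 knockout (KO) replicates were sequenced on each day, with CRISPR/Cas9 deletion of the gene for the histone variant H2A.X (H2AFX in the tables), and in the BAZ1B experiment 3 WT and 3 KO replicates, with deletion at the gene for BAZ1B, also called WSTF, a kinase of the H2A.X tail. Cells were taken in expansion medium (D0) and after 6 days in medium that induces erythroid maturation (D6). WT and KO cells were all HUDEP-2 subclones, and the media at both stages held stem cell factor, erythropoietin and doxycycline. The paper lists dexamethasone only for the expansion medium, and plasma, heparin, transferrin and insulin only for the maturation medium. Day and medium therefore cannot be told apart. The deletion of H2AFX ran from before the start codon to just past the stop codon, and that of BAZ1B only to beyond the first exon. The labels number the replicates but do not say whether a number marks the same subclone on both days. The column names of the counts write the KO libraries as KO1 to KO3 on both days, and the paper names its KO subclones in that way. The main fits did not tie the days. The p-values measure the spread between these libraries of 1 cell line, which may in part be technical.

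Complexes I to IV pass electrons from NADH and succinate to oxygen and, all but complex II, pump protons across the inner mitochondrial membrane, and complex V uses the proton gradient to make ATP. Most subunits are encoded in the nucleus and imported, while a small core is encoded in mitochondrial DNA and translated on mitochondrial ribosomes. Erythroid cells use mitochondria for heme synthesis, which needs the iron-sulfur clusters and the succinyl-CoA made there, and lose these organelles late in maturation. The transcription factors NRF1, the ETS factor GABP and YY1 are known to bind near the starts of many of these genes.

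Because these genes are known for shared promoter elements, the RefSeq promoter of each member (GRCh38.p14, 250 bases before to 50 after the transcription start) was searched on both strands for TGCGCA, a palindrome that forms each side of the NRF1 site, for CCGGAAG, the ETS core, and for AAGATGG, the YY1 core. Of the 86 members, 68 had an entry, with 81 promoters among them. TGCGCA was in 22 of the 81 (27.2%) against 8.24% of all 35116 promoters, CCGGAAG in 22 (27.2%) against 10.3%, and AAGATGG in 19 (23.5%) against 5.84%. Among the 14293 promoters of genes tested in these libraries the shares were 12.7%, 17.8% and 7.39%. At least 1 of the 3 was in 44 member promoters (54.3%), against 21.6% of all and 32.7% of those of tested genes. All 3 were in 2 member promoters, those of SDHB and ATP5ME, and in 42 of all promoters. A match says only that the letters are there. The stretches of 30 bases below show 1 gene of each complex that held at least 2 of the motifs, each written along the gene's strand with the motif in capitals:
NDUFA12 NRF1, chr12:95003797-95003826, minus strand: aagacctagctcTGCGCAcgcgcagagcca
NDUFA12 YY1, chr12:95003665-95003694, minus strand: gccagcgaggcAAGATGGagttagtgcagg
SDHB NRF1, chr1:17054193-17054222, minus strand: ctactgcgctatTGCGCAcgctcgctgtgc
SDHB ETS, chr1:17054142-17054171, minus strand: cacccgggaaaCCGGAAGccgcctcccact
SDHB YY1, chr1:17054004-17054033, minus strand: cgtcaggagccAAGATGGcggcggtggtcg
UQCR11 NRF1, chr19:1605450-1605479, minus strand: cgcggccgcgccTGCGCAgtgtagccgggt
UQCR11 ETS, chr19:1605561-1605590, minus strand: tccaaccctcgCCGGAAGttactgtaagtg
COX5B NRF1, chr2:97645917-97645946, plus strand: cagagctgggcaTGCGCAatttccgccccc
COX5B ETS, chr2:97646014-97646043, plus strand: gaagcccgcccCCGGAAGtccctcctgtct
ATP5ME NRF1, chr4:674479-674508, minus strand: tcacgcagcaacTGCGCAggcgcagccgat
ATP5ME ETS, chr4:674255-674284, minus strand, here as its reverse complement: tgcaggttgtgCTTCCGGtgcggaggtcag

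The H2A.X libraries held 11910141 to 21013004 counts and the BAZ1B libraries 33199408 to 41273244. The spread between replicates also differed, with a biological coefficient of variation of 0.239 in the H2A.X fit and 0.0865 in the BAZ1B fit. H2AFX had 1575 and 1969 normalized counts (counts scaled to a common library size by TMM within an experiment) in the H2A.X WT libraries at D0 and 333, 787 and 760 in the KO libraries, and at D6 1748 and 2391 in WT and 308, 1050 and 799 in KO. BAZ1B, most of whose transcript lies outside its deletion, had 9104 to 9913 in WT and 6556 to 8349 in KO, which therefore checks little. In the H2A.X experiment longer transcripts had higher KO to WT ratios (over 12000 genes, rank correlations of 0.55 at D0 and 0.60 at D6), while in the BAZ1B experiment it was -0.030 and 0.052. The members are short, with a median canonical transcript of 784 bases against 3118 for all genes tested, so the counts of members called in H2A.X KO against WT are also given below after correction of each library for length and GC content. The word Redo stands in the names of all H2A.X KO columns but 1, KO replicate 3 at D6, and of no WT column. At D0 it therefore cannot be told apart from genotype. At D6 the members took 1.31% of counts in KO replicate 3 and 0.955% and 0.878% in the other KO libraries. The WT libraries at D6 had 1.80% and 2.01%, so KO replicate 3 lay nearest to WT. The part of Redo in the values was not tested.

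Of the 86 members, 80 passed the filter on low counts in both experiments. The other 6 were tissue isoforms or near copies of subunits: COX4I2, COX6A2, COX7A1 and COX7B2 had 0 reads in all 22 libraries, COX8C at most 1 read in a library, and ATP5MGL at most 4. The isoforms that are found in most tissues, COX4I1, COX6A1, COX7A2, COX7B and COX8A, were all among the 80. COX6B2, known as a testis isoform of subunit 6B, was the one tissue isoform of complex IV with enough reads to be tested. As RPKM, which scales counts by library size and by the median length of a gene's coding transcripts, levels in the BAZ1B WT libraries at D0 ran from 0.532 for COX6B2 to 1386 for ATP5F1A, the alpha subunit of ATP synthase. The beta subunit ATP5F1B followed with an RPKM of 1211 and UQCRB of complex III with 696. At the low end stood NDUFA7 with an RPKM of 0.551, NDUFV2 with 0.785 and COX6B2, which rest on few reads. Their exons are shared with another gene over 32.5%, 28.4% and 29.1% of their length. Reads may thus have been split, and these levels may be too low.

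The share of each library taken by the 86 genes separated WT from KO in the H2A.X experiment but not in the BAZ1B experiment. The share was 1.64% and 2.28% in the H2A.X WT libraries at D0 and 1.13%, 1.22% and 1.21% in the KO libraries. At D6 it was 1.80% and 2.01% in WT and 0.955%, 0.878% and 1.31% in KO, so that at each day every WT library lay above every KO library. With globin counts left out of the denominator the order was kept, with group means at D6 of 1.98% ± 0.18 (SD, n = 2) for WT and 1.08% ± 0.24 (SD, n = 3) for KO. In the BAZ1B experiment the 12 libraries lay between 1.01% and 1.15%, with means of 1.13% ± 0.013 in WT and 1.11% ± 0.033 in KO at D0 and of 1.04% ± 0.031 and 1.07% ± 0.022 at D6 (SD, n = 3 each), and the groups overlapped at both days. In bulk RNA, fewer cells with these transcripts and fewer transcripts per cell cannot be told apart.

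**Figure D1:**
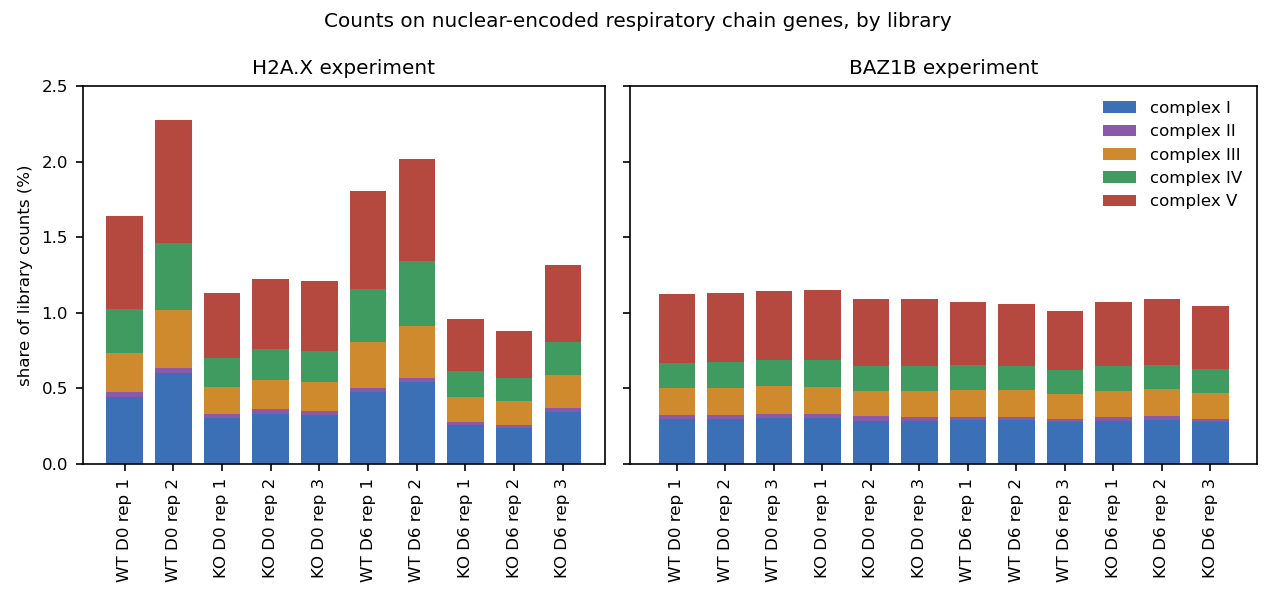
Percent of a library's counts that fell in the 86 respiratory chain genes (vertical axis), for each library of the H2A.X and BAZ1B experiments (horizontal axis). Each library has 1 stacked bar, coloured by complex. The H2A.X WT libraries sit between 1.64% and 2.28%, above all H2A.X KO libraries (0.878% to 1.31%), while the BAZ1B libraries lie together between 1.01% and 1.15%.

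In the H2A.X experiment at D0, the question was how the KO subclones differed from WT before maturation. In the fit to all genes, 68 of the 80 members were lower in KO by edgeR's quasi-likelihood test with a Benjamini-Hochberg adjusted p below 0.05, and 0 were higher. Of all 13236 genes tested, 35.1% were called in either direction and 16.7% were called lower. The median member log2 fold change was -0.999, against 0.013 for all genes. For 77 of the 80 members every KO library lay below every WT library, as was true of 34.1% of all genes. Calls came from all 5 complexes, with 33 of 37 members lower for complex I, 2 of 4 for complex II, 8 of 10 for complex III, 11 of 12 for complex IV and 14 of 17 for complex V.

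At D6, 68 members were lower and 1 was higher, against 43.1% of all genes called, 20.9% lower. The median log2 fold change was -1.15. In 75 members every KO library lay below every WT library (32.3% of all genes). By complex, 32 of 37 members were lower for complex I, 1 of 4 for complex II, 9 of 10 for complex III, 10 of 12 for complex IV and 16 of 17 for complex V. Members called lower at both days numbered 63. Between the days the KO effect differed for 0 of the 80 members by edgeR's test of the interaction and for 0 by DESeq2, while 1 had an unadjusted p below 0.05, and 1.34% of all genes were called.

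Within complex I, whose peripheral arm takes electrons from NADH, both core and accessory subunits were among the members called lower. NDUFV1, the core subunit that binds NADH and flavin, had 4416 and 6022 normalized counts in WT at D0 and 2160, 2467 and 2555 in KO. At D6 it had 5120 and 6369 in WT and 2268, 2121 and 3806 in KO. The groups did not overlap on either day, and the log2 fold change was -1.12 at D0 (SE 0.25, edgeR adjusted p = 0.0106) and -1.07 at D6 (SE 0.25, edgeR adjusted p = 0.00827). Lowest of all members at D0 was NDUFA11, an accessory subunit of the membrane arm, with 899 and 1511 in WT against 372, 404 and 410 in KO and a log2 fold change of -1.61 (SE 0.27, edgeR adjusted p = 0.00555). At D6 the lowest was NDUFS6, an accessory subunit of the peripheral arm, with 2322 and 4288 in WT and 701, 704 and 1166 in KO, a log2 fold change of -1.95 (SE 0.34, edgeR adjusted p = 0.00409). The iron-sulfur core subunits NDUFS7 and NDUFS8 had log2 fold changes of -0.87 and -1.36 at D0 and of -1.69 and -1.67 at D6, all called. The exons of NDUFS7 are shared with another gene over 51.5% of their length, and its reads may be split.

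NDUFS1, the largest core subunit of complex I, which carries iron-sulfur clusters, went the other way. It had 3428 and 3000 normalized counts in WT at D0 and 3864, 4288 and 3993 in KO, and 2671 and 2607 in WT and 3815, 3770 and 3327 in KO at D6. All KO libraries were above all WT libraries, with a log2 fold change of 0.33 at D0 (SE 0.13, edgeR adjusted p = 0.076) and of 0.46 at D6 (SE 0.13, edgeR adjusted p = 0.0198). Its canonical transcript, at 11660 bases, is the longest of the members, and with the length and GC correction the log2 fold change was -0.65 at D0 and -0.52 at D6. With coding length in the correction in place of transcript length it was -0.084 and -0.11.

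The 4 subunits of complex II, succinate dehydrogenase, had the smallest median of the complexes at both days. SDHA, the flavoprotein that oxidizes succinate, had 901 and 1316 normalized counts in WT and 596, 672 and 614 in KO at D0, with its log2 fold change at -0.82 (SE 0.20, edgeR adjusted p = 0.0143), and -0.50 at D6 (SE 0.21, edgeR adjusted p = 0.0703). SDHB, the iron-sulfur subunit, was lower at both days, by -0.50 at D0 and -0.77 at D6. SDHC, a membrane anchor, had 820 and 924 in WT and 901, 917 and 905 in KO at D0, and 853 and 702 in WT and 869, 1127 and 930 in KO at D6. Its groups overlapped at D0, and neither SDHC nor SDHD, the other anchor, passed the test at any day in either experiment's KO to WT comparison. With the length and GC correction SDHC was higher in KO at D6, at 0.85 (edgeR adjusted p = 0.0145). The median over the 4 was -0.39 at D0 and -0.36 at D6.

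In complex III, which hands electrons to cytochrome c, UQCRFS1, the Rieske iron-sulfur protein, had 4136 and 7418 normalized counts in WT at D0 and 2552, 2762 and 2794 in KO. At D6 it had 4528 and 6034 in WT and 2291, 2288 and 2996 in KO. The groups did not overlap, and the log2 fold change was -1.10 at D0 (SE 0.24, edgeR adjusted p = 0.00978) and -1.06 at D6 (SE 0.24, edgeR adjusted p = 0.00709). CYC1, cytochrome c1, was lower too, at -0.67 and -0.75, as was the core protein UQCRC1, at -0.68 and -0.85. The other core protein, UQCRC2, was not called, at -0.34 (edgeR adjusted p = 0.0798) and -0.29 (edgeR adjusted p = 0.118).

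In complex IV, cytochrome c oxidase, COX4I1, a subunit that binds nucleotides and adjusts the enzyme's rate, had 7804 and 13962 normalized counts in WT at D0 and 4885, 5267 and 5039 in KO. At D6 it had 11486 and 16145 in WT and 4708, 4702 and 6168 in KO, with the groups apart on both days. The log2 fold change was -1.10 (SE 0.24, edgeR adjusted p = 0.0104) and -1.41 (SE 0.24, edgeR adjusted p = 0.004). COX5A and COX5B, structural subunits on the matrix side, were lower by -0.97 and -1.02 at D0 and by -1.22 and -1.51 at D6. COX7A2L, which links complexes III and IV into supercomplexes, was lower at D0 (-0.88, edgeR adjusted p = 0.0208) and at D6 overlapped WT, with 4530 and 6634 in WT and 3782, 5181 and 3418 in KO (-0.44, edgeR adjusted p = 0.171). COX6B2 was not called at either day.

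In complex V, members of the catalytic head differed in size of change. ATP5F1A, the alpha subunit, had 30632 and 42611 normalized counts in WT and 14748, 16849 and 19386 in KO at D0, with its log2 fold change at -1.11 (SE 0.28, edgeR adjusted p = 0.0143), and at D6 32448 and 34063 in WT and 14332, 13725 and 26057 in KO, a log2 fold change of -0.88 (SE 0.28, edgeR adjusted p = 0.0263). ATP5F1B, the beta subunit, which forms a hexamer with alpha, was not called, with 19646 and 24618 in WT and 16453, 18180 and 16668 in KO at D0 (-0.37, edgeR adjusted p = 0.0875) and -0.42 at D6. The groups were apart for both genes. Of the central stalk, ATP5F1D (delta) was lower by -1.34 and -1.81 and ATP5F1E (epsilon) by -1.38 and -1.21, while ATP5F1C (gamma) was not called at D0 (-0.32) and was lower at D6 (-0.50). The 3 genes for subunit c of the membrane ring, ATP5MC1, ATP5MC2 and ATP5MC3, which encode the same mature protein, were lower at both days, at -0.87, -0.71 and -0.54 at D0 and -1.31, -1.08 and -0.80 at D6.

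**Figure D2:**
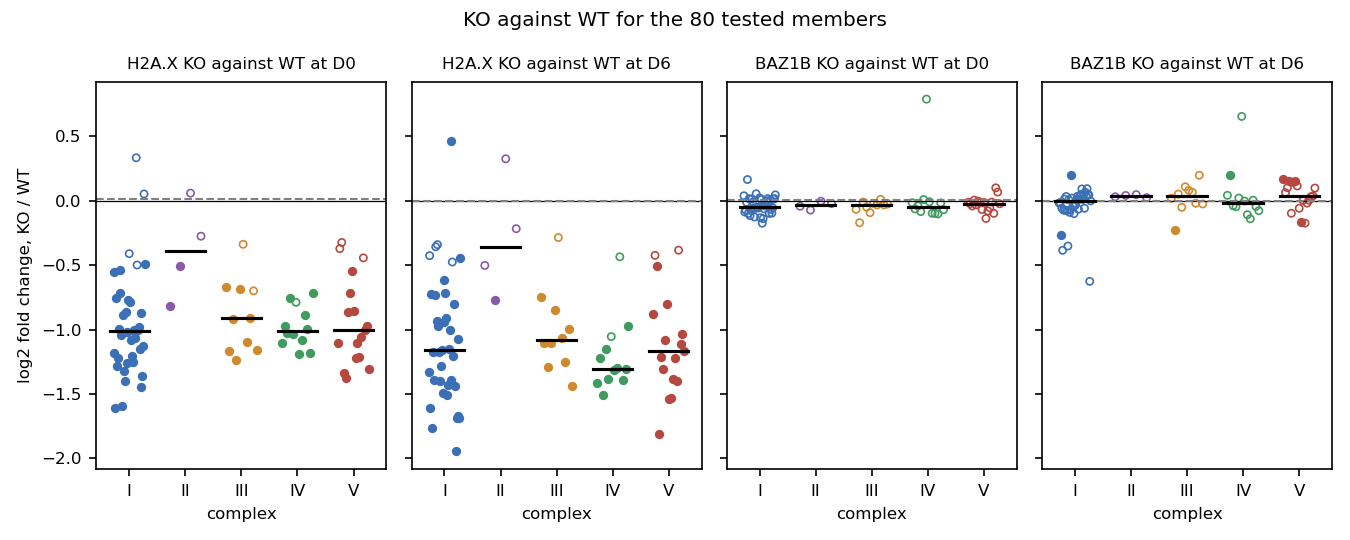
Log2 fold change of KO over WT (vertical axis) for the 80 members tested, by complex (horizontal axis), in 4 panels for experiment and day. Filled points had an edgeR adjusted p below 0.05 and open points did not, bars mark the median of each complex and the dashed line the median of all genes tested. In the H2A.X panels the medians of complexes I, III, IV and V lie between -1.30 and -0.91 and those of complex II at -0.39 and -0.36, and in the BAZ1B panels the points lie near 0 but for a few members with low counts such as COX6B2 (0.79 at D0 and 0.65 at D6).

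The H2A.X calls rested on WT replicate 2. It held the highest member levels at both days, its median member lying 0.91 log2 units above the mean of all 10 libraries at D0 and 0.94 at D6, against 0.13 and 0.53 for replicate 1 and -0.57 to -0.15 for the 6 KO libraries. Without WT replicate 2 at D0, 0 members were called by edgeR, 44 had an unadjusted p below 0.05, the median was -0.57 and 78 of 80 were still below 0, while 0.551% of all genes were called. Without WT replicate 2 at D6, 0 members were called, 63 had an unadjusted p below 0.05 and the median was -0.88, with 1.1% of all genes called. In these fits the lone WT library left at that day was assumed to vary like the other groups. Without 1 KO library, 47 to 56 members were called at D0, against 19.5% to 22.4% of all genes. At D6 these were 63 to 74 members, against 34.5% to 50.4%. Without WT replicate 1 the median was -1.33 at D0 and -1.34 at D6.

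Correction for transcript length left a smaller difference. Among the genes in the shortest eighth by transcript length (up to 1227 bases), which held 52 of the 80 members, the median log2 fold change of all genes was -0.73 at D0 and -0.96 at D6, and that of the members there -1.02 and -1.27. With the length and GC correction, 29 members were lower at D0 with a median of -0.42, against 10.2% of all genes called lower, and 26 at D6 with a median of -0.31, against 10.5%. Of the members lower after correction, 28 of 29 and 22 of 26 were also among those lower without it. With coding length in the correction, 25 were lower at D0 and 30 at D6, against 10.5% and 12.4% of all genes. Lower at both days without a correction and under each of the corrections were 9 members: NDUFA9, NDUFB5, NDUFB6 and NDUFV3 of complex I, UQCRB and UQCRFS1 of complex III, COX7C of complex IV, and ATP5F1A and ATP5MG of complex V. For NDUFA9 and NDUFB5 the canonical transcript, at 8356 and 4199 bases, was longer than the median coding transcript, at 642 and 847.5. The correction by transcript length took such members as long genes. The part of this choice of transcript in the corrected values was not tested. Among the called members named above, NDUFS7, SDHB and ATP5MC2 at D0 and CYC1 and ATP5F1C at D6 turned to values just above 0 under at least 1 of the corrections (0.022 to 0.23) and were then not called. Of the other members with values above, UQCRFS1 (-1.14 and -1.21 at D0 and D6), ATP5F1A (-1.64 and -1.45) and ATP5F1E (-1.54 and -1.58) were called lower on both days with the length and GC correction. Without it these values were nearer to 0, at -1.10 and -1.06, -1.11 and -0.88, and -1.38 and -1.21. With the length and GC correction NDUFA11 (-0.81 and -0.20), NDUFS8 (-0.56 and -0.36), NDUFV1 (-0.60 and -0.30) and SDHA (-0.68 and -0.38) were called at D0 and not at D6. COX4I1 (-0.41 and -0.48), COX5A (-0.44 and -0.63), COX5B (-0.33 and -0.53) and ATP5MC3 (-0.46 and -0.88) were called at D6 and not at D0, and NDUFS6 (-0.70 and -0.65), UQCRC1 (-0.20 and -0.17), ATP5F1D (-0.36 and -0.32) and ATP5MC1 (-0.17 and -0.27) on neither day. The individual libraries differed in this trend, since a library's deviation from the mean of all fell with length in WT (Spearman's rho -0.56 to -0.31) and rose with it in KO (0.13 to 0.44). What set it was not tested.

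**Figure D3:**
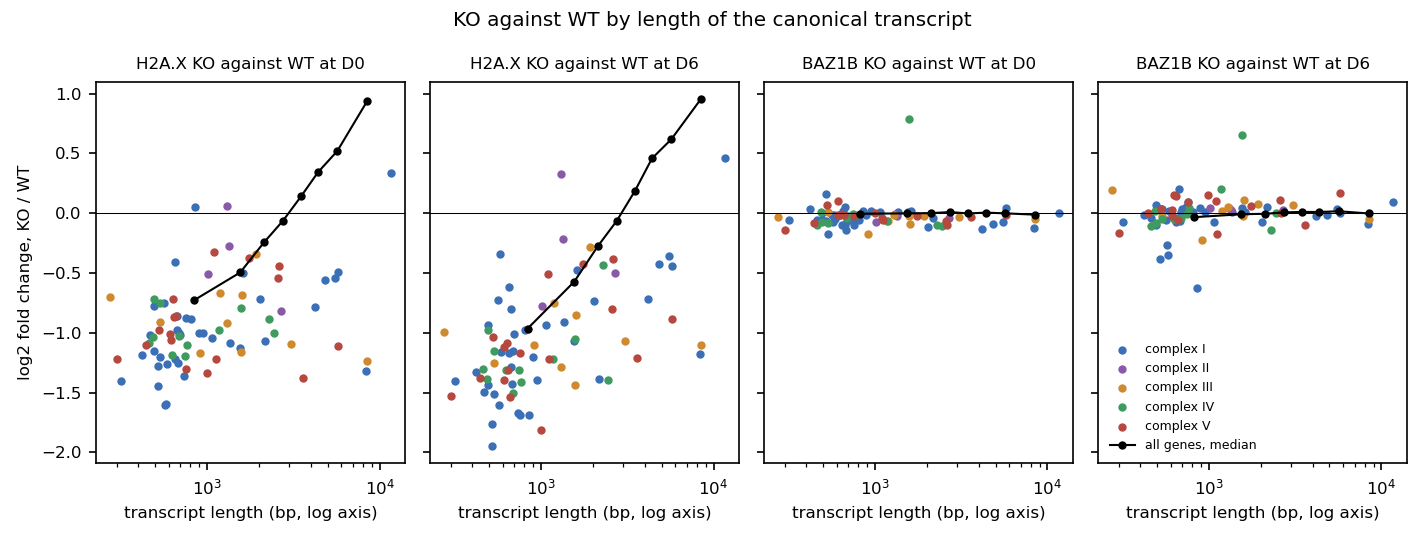
Log2 fold change of KO over WT (vertical axis) against canonical transcript length in bases (horizontal axis, log scale) for the members tested, coloured by complex, in 4 panels for experiment and day. The black line joins the medians of all genes tested in each eighth of length. In the H2A.X panels the line climbs from -0.73 to 0.94 at D0 and from -0.96 to 0.96 at D6 with most members under it, and in the BAZ1B panels the line stays near 0.

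Other mitochondrial and short-transcript genes of the H2A.X experiment were read beside these. Of all genes tested, 16.7% were called lower in KO at D0 and 20.9% at D6. With the length and GC correction these shares were 10.2% and 10.5%. Of 50 assembly factors of the chain, 27 were lower in KO and 1 higher at D0 (median log2 fold change -0.58), and 30 lower and 1 higher at D6 (-0.73), the 1 at the top of both being LYRM7, a chaperone of the Rieske protein. Of 76 mitochondrial ribosomal protein genes tested, 51 were lower at D0 and 57 at D6, and of 81 cytoplasmic ones, which are also short, 76 and 75, with medians of -0.96 and -1.12. Of 17 genes for electron carriers and ubiquinone synthesis, 6 and 7 were lower. Of 14 genes of the TCA cycle, 4 were lower at D0, and 3 were lower and 2 higher at D6. With the length and GC correction 16 and 11 assembly factors were lower at D0 and D6 (medians -0.30 and -0.34), 21 and 21 mitochondrial and 30 and 27 cytoplasmic ribosomal protein genes, and 4 and 2 genes for electron carriers and ubiquinone synthesis, while of the TCA cycle 1 gene was higher and 0 were lower at D0 by edgeR and 3 were higher and 1 lower at D6. The 13 subunits encoded in mitochondrial DNA did not follow the nuclear ones: 3 were higher and 0 lower at D0 by edgeR (median 0.59), and 3 higher and 1 lower at D6 (-0.026), and with the correction 4 and 3 were higher and 0 lower (medians 1.01 and 0.63). Their summed share of counts was 2.81% and 1.16% in the WT libraries at D0 and 3.06% to 3.28% in KO. Cell type markers moved as well: of 12 erythroid markers 10 were lower in KO at D0 (median -1.42), and 2 were lower and 2 higher at D6. With the correction 7 were lower at D0, and 4 were higher and 0 lower at D6 (median 0.70). The summed normalized count of 8 mast cell and eosinophil markers at D0 was 1821 to 2456 in WT and 3679 to 7368 in KO, and CLC was at 0 in both groups. At D6 the order was turned, with 2541 to 4069 in WT and 54.2 to 237 in KO. That of 6 megakaryocyte markers at D0 was 153 to 170 in WT against 575 to 1330 in KO, and at D6 it was 62.6 to 139 in WT against 34.0 to 84.0 in KO, with PF4, PPBP and GP1BA at 0. The part of these in the member values was not tested.

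From D0 to D6 the members of the H2A.X experiment changed little by the test. In WT, 0 of 80 were called by edgeR and 0 by DESeq2, 3 had an unadjusted p below 0.05, and 2% of all genes were called. Their median log2 fold change was 0.19, which was 0.64 without WT replicate 2 at D0 and -0.17 without WT replicate 1 at D0. In KO, 2 were called, both higher at D6, against 30.9% of all genes. COX7A2L had 1629, 2107 and 1925 normalized counts at D0 and 3782, 5181 and 3418 at D6 in KO, with no overlap, a log2 fold change of 1.13 (SE 0.22, edgeR adjusted p = 0.00434). NDUFS4, an accessory subunit of complex I needed for its activity, had 466, 469 and 541 at D0 and 670, 792 and 781 at D6, a log2 fold change of 0.60 (SE 0.19, edgeR adjusted p = 0.0343). With a block that ties libraries of the same genotype and replicate number across the days, 7 members rose and 1 fell in KO, against 38.5% of all genes called, and 1 rose in WT, against 8.51%. In that fit COX7A2L was higher at D6 in both genotypes, at 1.11 in KO (edgeR adjusted p = 0.00032) and 0.68 in WT (edgeR adjusted p = 0.0322), and NDUFB2 was lower in KO, at -0.68 (edgeR adjusted p = 0.00846). Without single libraries, 1 to 4 members were called in KO in the fit with no block, against 20.2% to 36.9% of all genes. The 4 were called without KO replicate 3 at D6 (36.9%).

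In the BAZ1B experiment at D0, no member passed the test between KO and WT. Of the 80, 0 were called by edgeR and 0 by DESeq2, 8 had an unadjusted p below 0.05, and 3.88% of all genes were called. The median log2 fold change was -0.0325, and the middle 50% of the members spanned 0.0684 log2 units against 0.182 for all genes. COX6B2 stood highest, with 32.9, 29.3 and 31.7 normalized counts in WT and 32.5, 66.8 and 63.1 in KO, a log2 fold change of 0.79 (SE 0.25, edgeR adjusted p = 0.109). KO replicate 1 lay within WT for this gene and the other 2 KO libraries above it. Without KO replicate 1 at D0, 6 members were called, against 9.35% of all genes.

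At D6, 8 members differed, 5 higher and 3 lower in KO, which is 10% of the 80 against 12.8% of all genes. COX5A had 4457, 4137 and 4234 normalized counts in WT and 4700, 5074 and 4983 in KO, a log2 fold change of 0.20 (SE 0.045, edgeR adjusted p = 0.0108). ATP5F1A had 48416, 46129 and 46481 in WT and 51397, 53565 and 53804 in KO, a log2 fold change of 0.17 (SE 0.034, edgeR adjusted p = 0.0051). UQCR10, a small subunit of complex III, had 3335, 3159 and 3163 in WT and 2834, 2814 and 2614 in KO, a log2 fold change of -0.23 (SE 0.050, edgeR adjusted p = 0.0101). In these 3 genes the groups did not overlap. NDUFB10, a membrane arm subunit of complex I, was higher by 0.20, ATP5F1D by 0.16 and ATP5MC2 by 0.15, while NDUFA11 was lower, at -0.27 (edgeR adjusted p = 0.0402), and so was ATP5ME, a small membrane subunit of complex V, at -0.17 (edgeR adjusted p = 0.048). With a block for the replicate number the last pair were no longer called (adjusted p = 0.0611 and 0.0596). The exons of ATP5ME overlap those of MYL5 over 61.3% of their length, so its reads may be split between them. The count of 8 fell to between 2 and 5 when any 1 library of the D6 groups was left out. In these fits 7.88% to 11.6% of all genes were called. The member count was 2 without WT replicate 2 (8.72% of all genes) and 5 without WT replicate 1 (9.31%).

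COX5A was also the 1 member whose KO effect differed between the days, by 0.27 (SE 0.064, edgeR adjusted p = 0.0496), among 2.47% of all genes and 11 members with an unadjusted p below 0.05. At D0 it had 5293, 5262 and 5050 normalized counts in WT and 4725, 5182 and 5022 in KO, which overlap, so that it fell from D0 to D6 in WT (-0.28, edgeR adjusted p = 9.78e-05) and was not called in KO (-0.017, edgeR adjusted p = 0.753). The call was at the edge of the threshold: with RLE size factors in place of TMM 0 members were called, and with DESeq2 3. Leaving out single libraries gave 0 to 4 members, against 0.844% to 5.41% of all genes, with 4 (5.41%) without KO replicate 1 at D0.

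Maturation from D0 to D6 was the comparison that moved the members most clearly in the BAZ1B experiment. In WT, 52 of 80 were called, 30 higher and 22 lower at D6, which is 65% against 68.9% of all genes. In KO, 50 were called, 36 higher and 14 lower, against 67.7% of all genes. The median log2 fold change was 0.077 in WT and 0.096 in KO. Members were thus called about as often as other genes and moved less far. The middle 50% spanned 0.367 log2 units in WT against 0.935 for all genes, and 1 member changed by more than 1 log2 unit, against 24.8% of all genes. With the length and GC correction the WT median was -0.0054 and with coding length -0.032.

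The WT and KO libraries, which share no samples, gave side by side day changes of the same kind. Of the 30 members higher at D6 in WT, 27 were also called higher in KO, of the 22 lower in WT 12 were called lower in KO, and 0 were called in opposite directions. Pearson's r between the 2 sets of day changes was 0.91 over the 80 members and 0.92 over all genes, as a description across genes, which are not independent. The H2A.X KO libraries, of another experiment, had log2 fold changes above 0 for 26 of the 30 and below 0 for all 22 of these, with r = 0.74 over the 80 members. In the H2A.X WT libraries the values were above 0 for 27 of the 30 and below 0 for 11 of the 22, with r = 0.34.

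**Figure D4:**
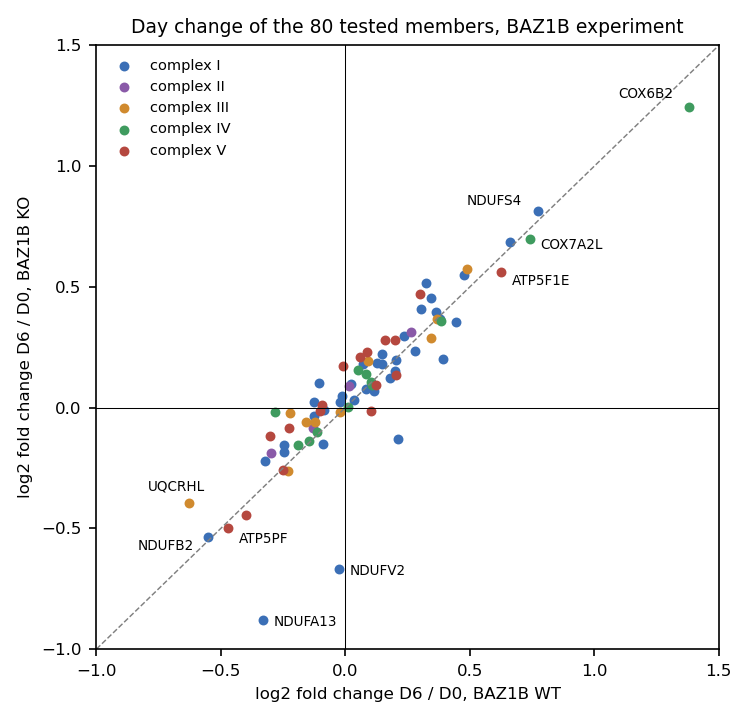
Log2 fold change from D0 to D6 in BAZ1B WT (horizontal axis) and BAZ1B KO (vertical axis), 1 point per member, coloured by complex. Points follow the diagonal (r = 0.91 over 80 members), from UQCRHL and NDUFB2 at the lower left to NDUFS4, COX7A2L and COX6B2 at the upper right.

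No complex moved as a block over the 6 days. Of complex I, 17 members were higher and 5 lower at D6 in WT. NDUFS4 had 796, 819 and 844 normalized counts at D0 and 1397, 1452 and 1357 at D6, a log2 fold change of 0.77 (SE 0.066, edgeR adjusted p = 2.67e-07), and 0.81 in KO. NDUFA2, an accessory subunit of the peripheral arm, had 1266, 1249 and 1324 at D0 and 2109, 1952 and 2005 at D6, a log2 fold change of 0.66 (SE 0.046, edgeR adjusted p = 3.88e-08). NDUFB2, of the membrane arm, went down from 2229, 2332 and 2315 to 1579, 1618 and 1494, a log2 fold change of -0.55 (SE 0.044, edgeR adjusted p = 1.51e-07). The days did not overlap for any of these genes. Core subunits went both ways, with NDUFV1 higher by 0.36, NDUFS8 by 0.30 and NDUFS7 by 0.33, and NDUFS3 and NDUFS1 lower at -0.24 and -0.13 (NDUFS1 at 0.057 and not called with the length and GC correction).

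The subunits of complex II split. SDHB fell from 4002, 3934 and 3941 normalized counts in WT at D0 to 3279, 3266 and 3099 at D6, a log2 fold change of -0.30 (SE 0.042, edgeR adjusted p = 2.81e-05). SDHC rose from 2278, 2288 and 2310 to 2861, 2651 and 2733, a log2 fold change of 0.26 (SE 0.047, edgeR adjusted p = 0.000269). Both changes passed the test in KO too, at -0.19 and 0.31, and in neither gene did the days overlap in WT. SDHD was lower in WT, at -0.13 (edgeR adjusted p = 0.018), and SDHA was not called, at 0.015.

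Of complex III, 4 members were higher and 4 lower in WT. CYC1 had 5655, 5517 and 5645 normalized counts at D0 and 8173, 7716 and 7685 at D6, a log2 fold change of 0.49 (SE 0.057, edgeR adjusted p = 6.04e-06), and 0.57 in KO. UQCRB rose by 0.37 and UQCR10 by 0.34. UQCRH, the hinge protein that docks cytochrome c, was lower, at -0.23 (edgeR adjusted p = 0.00012), and UQCRFS1 and UQCRC1 at -0.16 and -0.22. UQCRHL, a near-identical copy of UQCRH, had 203, 224 and 249 at D0 and 152, 139 and 147 at D6 in WT, the largest fall of any member (-0.63, edgeR adjusted p = 0.00114). Reads may be split between the copies, so the value for UQCRHL, which held 1.86% to 2.93% of the reads of the pair in the BAZ1B libraries and 6.62% to 8.53% in the H2A.X libraries, is uncertain.

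In complex IV, 3 members were higher and 4 lower at D6 in WT. COX7A2L had 3648, 3604 and 3498 normalized counts at D0 and 5933, 5775 and 6268 at D6 in WT, a log2 fold change of 0.74 (SE 0.062, edgeR adjusted p = 2.36e-07), and 0.70 in KO. COX6B2 rose from the 29.3 to 32.9 given above to 81.5, 76.9 and 86.7, a log2 fold change of 1.38 (SE 0.24, edgeR adjusted p = 0.000197), and 1.25 in KO. It remained a small part of the pair, with 0.351% to 0.414% of the reads of COX6B1 and COX6B2 together in WT at D0 and 1.03% to 1.20% at D6. COX7C, a small subunit, was higher by 0.38, and COX6A1, COX6B1 and COX6C were lower by less than COX5A, at -0.19, -0.11 and -0.14. COX4I1 and COX5B were not called in WT, at 0.083 (edgeR adjusted p = 0.0653) and 0.10 (edgeR adjusted p = 0.071).

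In complex V, 5 members were higher and 7 lower in WT. ATP5F1E, the epsilon subunit, had 6609, 6565 and 6568 normalized counts at D0 and 10343, 9740 and 10385 at D6 in WT, a log2 fold change of 0.63 (SE 0.047, edgeR adjusted p = 8.21e-08). ATP5PF, coupling factor 6 of the peripheral stalk, had 5664, 5550 and 5597 at D0 and 4176, 4131 and 3825 at D6, a log2 fold change of -0.47 (SE 0.044, edgeR adjusted p = 6.98e-07). The days did not overlap for either, and KO gave 0.56 and -0.50. The other subunits of the head and central stalk changed little or fell: ATP5F1A was not called in WT (-0.011) and rose in KO (0.17), ATP5F1B was at -0.10 (edgeR adjusted p = 0.0214) and ATP5F1C at -0.23 (edgeR adjusted p = 6.22e-05). The 3 genes of subunit c differed among themselves in WT, with ATP5MC1 not called at 0.087 (edgeR adjusted p = 0.151), ATP5MC2 higher at 0.30 (edgeR adjusted p = 4.08e-05) and ATP5MC3 lower at -0.30 (edgeR adjusted p = 0.000101). In KO all of them passed the test, at 0.23, 0.47 and -0.12. Part of the exon sequence of ATP5F1E is shared with TUBB1 and of ATP5PF with GABPA (23.2% and 34.4%).

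**Figure D5:**
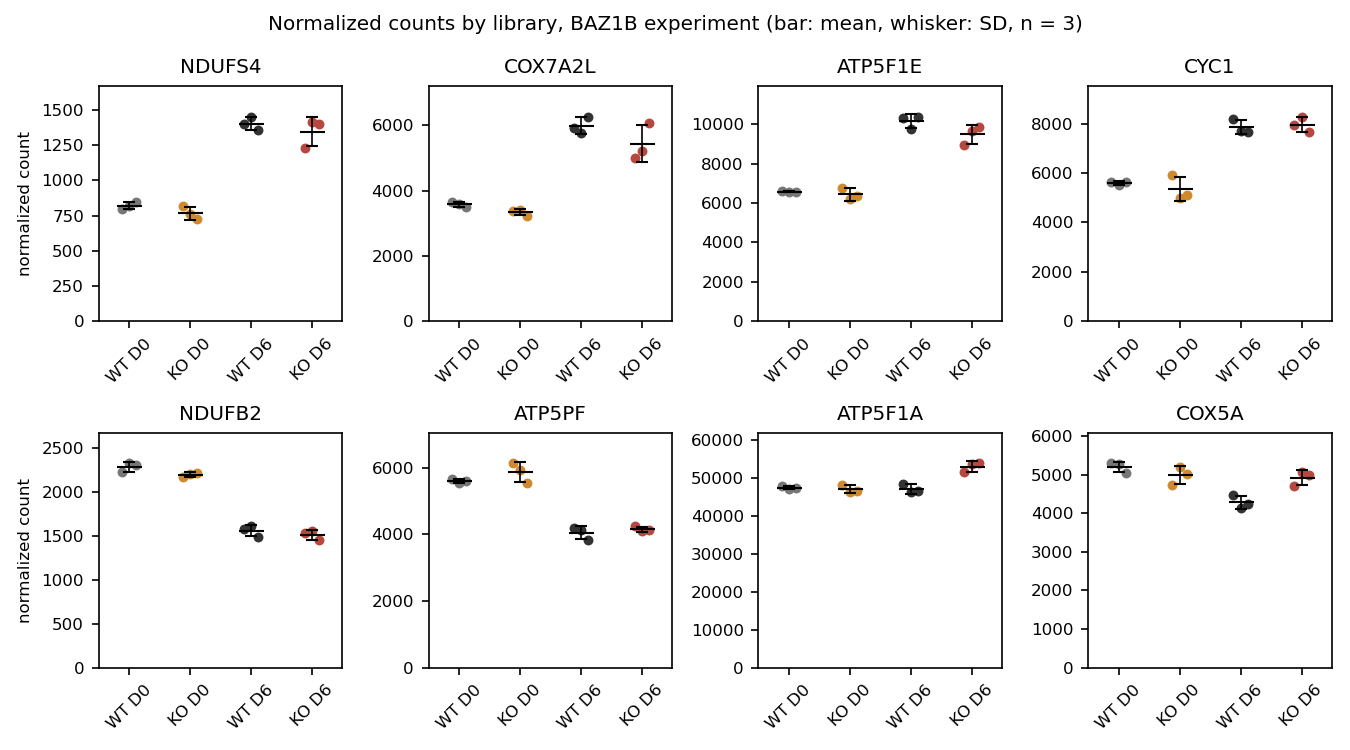
Normalized counts (vertical axes, from 0) of NDUFS4, COX7A2L, ATP5F1E, CYC1, NDUFB2, ATP5PF, ATP5F1A and COX5A in the BAZ1B experiment, by genotype and day (horizontal axes), with 1 point per library, a bar at the mean and a whisker of 1 SD (n = 3). The first 4 genes are higher at D6 in both genotypes, NDUFB2 and ATP5PF are lower, and ATP5F1A and COX5A differ between WT and KO at D6.

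By promoter motif, the members with an ETS core in an entry had a median day change of -0.11 in BAZ1B WT (21 members) against 0.15 for the 44 without, and of -0.034 against 0.19 in KO. For the NRF1 motif the medians in WT were 0.11 with and 0.083 without, and for YY1 0.13 and 0.033. These are descriptions with no test. In the H2A.X KO to WT comparisons members with and without each motif had medians between -1.25 and -0.90.

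Genes around the chain were read over the same days, for which 68.9% of all genes were called in BAZ1B WT. In BAZ1B WT, 13 of 50 assembly factors were higher and 21 lower at D6, from COA6, a copper chaperone of complex IV, at -1.24 to UQCC3, an assembly factor of complex III, at 2.62. Of the 13 subunits encoded in mitochondrial DNA, 1 was higher and 9 lower (median -0.50), and their share of counts went from between 3.06% and 4.14% to between 2.29% and 2.39%. Of 10 regulators tested, 2 were higher and 7 lower, from the coactivator PPARGC1B at -1.42 to GABPB1, the partner of the ETS factor GABPA, at 0.69. Of 17 genes for electron carriers and ubiquinone synthesis, 9 were higher and 5 lower, with COQ3 at the top (1.48), and of 14 genes of the TCA cycle, 5 and 4, with IDH2 at the top (1.20) and IDH3A at the bottom (-0.82). Of 81 cytoplasmic ribosomal protein genes, 74 were higher (median 0.43). All 12 erythroid markers were higher (median 2.40), their summed normalized count going from at most 279800 at D0 to at least 1479000 at D6, and all 6 mast cell and eosinophil markers tested were lower, their sum going from at least 17550 to at most 1532. The part of these in the member values was not tested.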

How the data were processed

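RNA was sequenced from HUDEP-2 cells at D0 and D6. The authors deposited 1 table of raw read counts per gene and experiment, made per the labels with STAR 2.7.0f on hg38 and featureCounts of Subread 1.6.4. The labels and the study's methods name different library kits (one stranded) and read lengths, so reads of overlapping genes may be split or shared.

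Each experiment was fitted on its deposited counts with edgeR 4.0.16 (R 4.3.3, TMM, quasi-likelihood test, 1 coefficient per genotype and day) on genes kept by filterByExpr with thresholds of 10 (min.count) and 15 (min.total.count), which left 13236 and 13879 genes. A call was a Benjamini-Hochberg adjusted p below 0.05 over all of them. Alternatives were DESeq2 1.42.0, RLE size factors, no filter, splines with 5 degrees of freedom for transcript length and GC content (GENCODE, GRCh38, with a length for 90.8% and 89.4% of genes tested), the same with coding length (added after the data were seen), a replicate block and leaving out each library. The main fits held no block. For H2A.X over days, the block tied libraries of the same genotype and replicate number, as an alternative. Such libraries deviated together across days (r 0.29 to 0.59), though the labels do not say that a number marks 1 subclone. With only 2 WT replicates, both WT pairs have the same r by construction. No 2 replicates agreed within sampling noise. Scripts were tested on simulated counts. The members, the gene lists and the tests were chosen with earlier results of these data known. Named members are, for each complex, the called ones with the largest changes among those whose normalized count averaged 50 or more, the catalytic or core subunits, and the isoform pairs; other members were named after their values were seen. Some single-gene results are not reported here.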

Additional observations from a re-analysis of the deposited data

Results flagged for a closer look

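1 result met the rules for a closer look: the KO effect on COX5A in the BAZ1B experiment differed between the days by the test of the difference itself, by 0.27 on the log2 scale (edgeR adjusted p = 0.0496). All 3 KO libraries lay above all 3 WT libraries at D6, while at D0 the groups overlapped. The call was lost with RLE size factors, and it was 1 of 80 tests of members among 13879 genes. Groups of 2 or 3 libraries were not searched for single outlying values.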

How the results depend on the processing

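With the length and GC correction, the same with coding length (added after the data were seen) and the former with the replicate block, members called in H2A.X KO against WT were 29, 25 and 34 at D0 (medians -0.42, -0.38 and -0.45) and 27, 32 and 30 at D6 (-0.31, -0.42 and -0.33). For H2A.X KO over days these gave 9, 10 and 16, DESeq2 4, no filter 5 and the subclone replicate block 8. That block called 38.5% of all genes there, against 30.9% in the main fit. In H2A.X WT over days the block gave 1, and 3 with the correction. There 8.51% of all genes were called with the block alone, against 2% in the main fit. In BAZ1B at D0 the counts were 1, 3 (median -0.060) and 2, and 3 with no filter. The BAZ1B difference between days gave 2 (median 0.081), 2 and 4 (median 0.081), with RLE size factors 0 and with DESeq2 3. Medians of BAZ1B day changes were -0.0054, -0.032 and -0.0069 in WT and 0.068, 0.0165 and 0.070 in KO. The cause was not tested. Counts given without a share of all genes do not tell a change in the members from a change in all calls.

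With 1 library left out, calls ranged in H2A.X from 0 to 74 at D0 (medians -1.33 to -0.57), 0 to 74 at D6 (-1.34 to -0.88), 0 for the difference between days (-0.52 to 0.15), 0 in WT over days (-0.17 to 0.64) and 1 to 4 in KO (-0.14 to 0.068). In BAZ1B they ranged from 0 to 6 at D0 (-0.051 to -0.027), 2 to 5 at D6 (-0.018 to 0.028) and 0 to 4 for the difference (0.0105 to 0.060). Over days in BAZ1B WT they ranged from 43 to 50 (0.053 to 0.093), against 63.4% to 64.3% of all genes. Those of BAZ1B KO ranged from 43 to 52 (0.077 to 0.12), against 62.7% to 67.1%.

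Of the member values given in the results, some turned sign in the same order of corrections. In H2A.X at D0 these were NDUFS7 (0.022, 0.10), NDUFS1 (-0.65, -0.084, -0.71), SDHB (0.048 and, with the block, 0.0505), ATP5F1B (0.016 and, with the block, 0.0034), ATP5F1C (0.18 and, with the block, 0.17) and ATP5MC2 (coding length, 0.028). At D6 they were NDUFS1 (-0.52, -0.11, -0.59), CYC1 (0.23 and, with the block, 0.20), COX7A2L (coding length, 0.019) and ATP5F1C (0.037 and, with the block, 0.032). In BAZ1B WT over days they were ATP5F1A (0.091, 0.067, 0.091), ATP5MC1 (-0.056, -0.041, -0.057), NDUFS1 (0.057 and, with the block, 0.057), SDHA (-0.0091 and, with the block, -0.011), COX4I1 (-0.066, -0.022, -0.067) and COX5B (-0.045, -0.022, -0.045). With 1 library left out, ATP5F1A (-0.0305 to 0.012) and SDHA (-0.027 to 0.084) in WT and COX5A in KO (-0.051 to 0.022) over days turned too.

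Same-numbered BAZ1B libraries had r of 0.24, -0.030 and 0.17 across days in WT and 0.41, 0.50 and 0.11 in KO. As 1 pair of 6 was not above 0.1, the days were not treated as paired, and the block gave 56 calls in WT, 53 in KO and 1 for the difference. Between WT and KO the numbers did not pair the BAZ1B libraries (r -0.15 to 0.24). For H2A.X between WT and KO, r was above 0.1 for every pair (0.12 to 0.24). With 2 pairs a day this cannot decide whether the numbers pair, and those libraries were not treated as paired. As a hint only, blocks for the replicate number between WT and KO gave 71 and 74 calls for H2A.X and 6 for BAZ1B at D6. For the blocks named here no share of all genes is given, so these counts do not separate the members from other genes. No other count or median moved beyond 1.5 times or the spread between replicates. The spread between H2A.X libraries (biological coefficient of variation 0.239, against 0.0865 in BAZ1B) and 2 WT replicates limit that experiment, and the part of depth was not tested.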
